A study of Homo sapiens with 20 samples.

Results

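Chromatin-associated RNA of cells carrying an inducible hairpin against Dicer or Ago2 was compared here with that of cells labelled as Drosha knockdown. The comparison used 6 of the 20 samples of the series, namely the 4 chromatin RNA samples of the inducible shDicer and shAgo2 groups (2 each) and the 2 chromatin RNA samples labelled shDrosha. The samples were taken by their labels and not by any measured value. All are human embryonic kidney cells, labelled HEK293. The shDicer and shAgo2 groups were stable lines with an integrated, doxycycline-inducible shRNA cassette and received 3 µg/ml doxycycline for 72 hours. The study lists more than one shDicer line, one of which also carries a tagged Dicer, and the labels do not say which was used. The shDrosha group received a hairpin plasmid by lipid transfection, with no doxycycline stated. The cell line, doxycycline, transfection and the knocked-down gene therefore cannot be told apart in this comparison. The 2 wild-type (wt) chromatin RNA samples were left out of every test of it and are given only as a reference level. A second set of 6 mRNA-seq samples (3 wt HEK293T and 3 of a HEK293 line with Dicer shRNA, all given 3 µg/ml doxycycline for 7 days) shares no library with the chromatin samples and served to look up the same genes in other cultures. Its labels name polyA RNA, whereas the methods describe ribosomal RNA depletion, and structured small nuclear RNAs took 12.4 to 21.5% of its counts.

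Drosha, with its partner DGCR8, cuts microRNA hairpins out of primary transcripts in the nucleus. Dicer cuts the exported hairpins into mature microRNAs, which Ago2 and the other Argonautes then carry to target transcripts. Dicer and Ago2 can also act with small RNAs derived from tRNA, and the study tested whether such small RNAs silence genes while their transcripts are still on chromatin. RNA purified with chromatin is rich in transcripts that are being made, and the study took its level as a proxy for nascent RNA.

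The targeted genes were checked first. All levels are in CPM, read counts scaled to a common library total with trimmed mean of M-values (TMM) factors over the 8 chromatin libraries, and fold changes are on a log2 scale from the fit of the 6 libraries. DICER1 was at 107 and 108 CPM in shDicer, 204 and 214 in shAgo2, 153 and 125 in the shDrosha-labelled libraries and 119 and 124 in wt. Its level was lowest in shDicer and highest in shAgo2, and the inducible lines together differed from shDrosha by 0.11 (SE 0.09, edgeR quasi-likelihood test, adjusted p = 0.382). AGO2 was at 222 and 241 CPM in shDicer, 162 and 160 in shAgo2 and 254 and 228 in the shDrosha-labelled libraries. The shAgo2 libraries lay below all others, including wt at 240 and 255 CPM. DROSHA itself was at 166 and 148 CPM in the shDrosha-labelled libraries, against 154 and 156 in shDicer, 164 and 171 in shAgo2 and 146 and 153 in wt. It was thus not lower in the libraries labelled shDrosha than in the others (difference 0.03, SE 0.08, edgeR, adjusted p = 0.756). Every direction below is therefore given against libraries labelled shDrosha, not against a loss of Drosha RNA measured in these libraries. The study itself followed steady-state Drosha, Dicer and Ago2 transcripts by quantitative PCR in the samples used for its chromatin sequencing. It also reported the 3 knockdowns on western blots. Neither kind of measurement is held by the files used here. DGCR8, whose transcript carries hairpins that Drosha cuts, was at 293, 268, 304 and 298 CPM in the inducible libraries. It was at 358 and 360 in the shDrosha-labelled libraries, between the wt values of 395 and 354. The difference of -0.31 between the inducible lines and shDrosha did not pass the threshold (SE 0.07, edgeR, adjusted p = 0.0067).

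**Figure D1:**
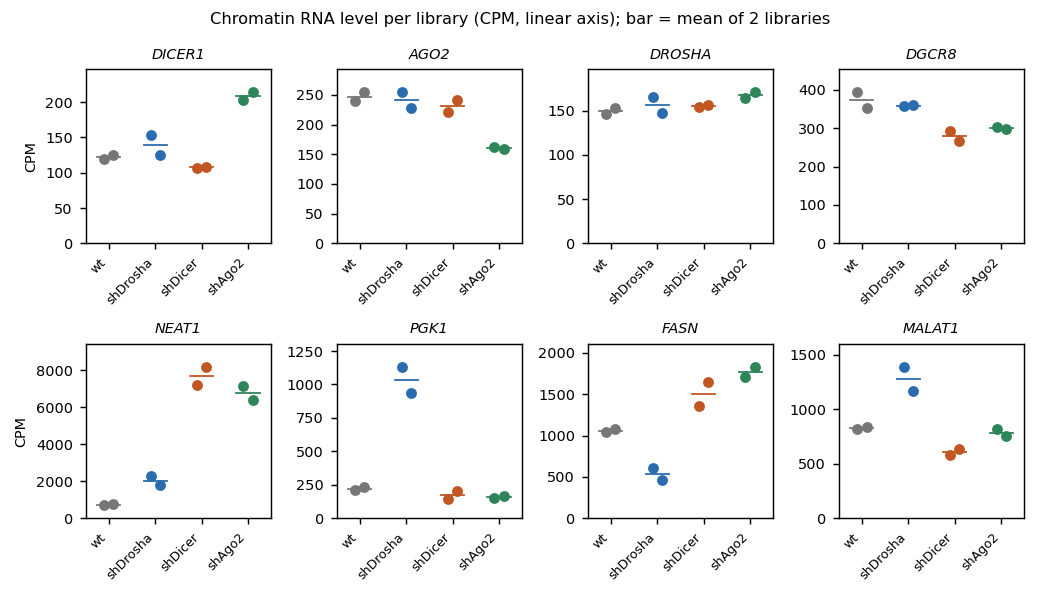
Chromatin RNA level in CPM (vertical axis, linear, from 0) for 8 genes in wt, shDrosha, shDicer and shAgo2; each point is 1 library and each bar the mean of 2. DROSHA lies between 146 and 171 CPM in all 8 libraries, NEAT1 is highest in the 4 inducible libraries, PGK1 is highest in the 2 shDrosha-labelled libraries and FASN is lowest there.

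The 6 libraries held 18690158 to 21553760 estimated counts, of which 93.4 to 94.0% were assigned to a gene, and 32730 genes passed the filter on low counts. Mitochondrially encoded transcripts took 0.553 to 0.745% of the counts in the inducible libraries and 0.560 to 0.595% in the shDrosha-labelled ones, and cytosolic ribosomal protein genes took 0.992 to 1.10% against 1.05 to 1.22%. Neither share separated the groups. The embryonic kidney cell markers ranged widely. VIM (158 to 359 CPM over the 6 libraries) and PAX2 (11.4 to 22.0 CPM) stood well above PAX8 (0.856 to 1.84 CPM) and LHX1 (0.328 to 2.61 CPM). Some markers of other cells were near the level of PAX2, namely the blood cell markers CSF1R (15.4 to 18.6 CPM) and CD4 (9.88 to 23.0 CPM) and the fibroblast marker COL1A1 (15.7 to 29.3 CPM). The blood cell markers summed to 43.5 to 53.5 CPM in the inducible libraries and 45.7 to 48.2 CPM in the shDrosha-labelled ones. The T cell marker CD3D had no count in any of the 6, which allows up to 0.171 CPM in replicate 1 of shDrosha (3 counts, counting error only). As these are bulk samples, fewer cells of a kind and less RNA per cell cannot be told apart.

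Many genes differed between the sides. At an adjusted p under 0.005 (edgeR quasi-likelihood test, Benjamini-Hochberg adjustment), 3791 genes were higher in the inducible lines, which is 11.6% of those tested, and 3571 were lower, which is 10.9%. The median difference of the higher genes was 0.95 and that of the lower genes -0.68. The higher side held more large differences, with 647 genes above a log2 difference of 2 and 339 above 3, against 302 and 158 genes below the same sizes on the lower side. Without replicate 2 of shDrosha the higher count was 2514. The lower count was 2140 without replicate 1 of shDrosha, 2115 without replicate 1 of shAgo2 and 2191 without replicate 2 of shAgo2. The groups did not overlap in 24.8% of all tested genes with the inducible side higher and in 24.3% with it lower, many more than passed the test. The labels do not say whether replicates are separate cultures, so that the p-values measure the spread between these samples, which may be technical.

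Measured against the same 2 shDrosha-labelled libraries, shDicer alone had 3210 genes higher (9.81%) and 2632 lower (8.04%), and shAgo2 alone had 3367 higher (10.3%) and 2941 lower (8.99%). Without replicate 1 of shAgo2 the shAgo2 counts were 1649 higher and 854 lower, and without its replicate 2 they were 1788 and 953. Leaving out replicate 1 of shDrosha left 1930 genes lower in shAgo2 and 1614 lower in shDicer, for which the count was also 1742 without replicate 2 of shDicer and 1701 without replicate 2 of shAgo2. Since both comparisons rest on the same control libraries, their values are set side by side and were not correlated.

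The wt libraries, which no test used, lay nearer the shDrosha-labelled libraries than the inducible ones for 3468 of the 3791 higher genes (91.5%) and for 3234 of the 3571 lower genes (90.6%), against 69.6% of all tested genes. The median difference of wt from shDrosha over the higher genes was 0.02, while that of the inducible lines from wt was 0.92. In the separate mRNA-seq cultures, where 15.6% of 15090 tested genes were higher and 14.2% lower in the Dicer shRNA line than in wt (edgeR, adjusted p under 0.001), 2492 of the genes higher in chromatin RNA could be tested. Of these 1419 were higher (56.9%) and 15 were lower, with a median difference of 1.01. Of the 2652 testable genes that were lower in chromatin RNA, 1142 were lower (43.1%) and 30 were higher, with a median of -0.57. Both mRNA groups received doxycycline, and only 1 of them carried the hairpin. That group was also a separate line, so hairpin and cell line cannot be told apart there either. The labels do not say whether it was the shDicer line of the chromatin samples.

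Among genes with an average log2 CPM of 3 or more that were called in both lines without overlap of the groups, the largest upregulation was that of FLG on chromosome 1 (chr1:152302165-152325239 on GRCh38, minus strand), which encodes the skin barrier protein filaggrin. FLG was at 68.8 and 78.7 CPM in shDicer, 70.7 and 72.3 in shAgo2, 0.114 and 0.0544 in the shDrosha-labelled libraries, and 0.0593 and 0.126 in wt. The 4 inducible libraries were alike, and the 2 shDrosha-labelled libraries together held 3 counts against 5556 in the inducible ones, a ratio per library of 868 (95% counting interval 297 to 4212). HRNR, the neighbouring gene on the same strand (chr1:152212076-152224193), encodes the related protein hornerin. HRNR was at 65.3, 67.9, 70.1 and 69.4 CPM in the inducible libraries, at 0.742 and 0.381 in the shDrosha-labelled ones and at 0 and 0.0632 in wt, a difference of 6.91 (SE 0.16, edgeR, adjusted p = 2.21e-09). Around them, FLG2 rose by 1.95 and the antisense transcript FLG-AS1 by 0.62 (edgeR, adjusted p = 7.42e-07 and 0.000138). CCDST, a long non-coding RNA beside HRNR and inside the span of FLG-AS1 on its strand, had 271 counts in the inducible libraries and none in the shDrosha-labelled ones, at least 20.7-fold higher against a floor of 3 counts per library. The S100A10 and S100A11 genes that precede this stretch were not called, with differences of -0.31 and 0.22. FLG and HRNR had too few counts in the mRNA libraries to be tested there. FLG2, FLG-AS1, CCDST and the S100 genes were chosen after their values were seen.

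Other genes that were close to silent in the shDrosha-labelled and wt libraries followed the same arrangement. PEG10, a placental gene derived from a retrotransposon and expressed from the paternal allele, was at 104, 144, 159 and 170 CPM in the inducible libraries and at 0.457 and 0.327 in the shDrosha-labelled ones (difference 8.49, SE 0.24). SLFN11, which blocks replication in cells with damaged DNA, was at 106 to 157 CPM against 0.571 and 0.544 (7.91, SE 0.22). ERBB4, a receptor of the epidermal growth factor family, was at 84.8 to 92.3 CPM against 0.685 and 0.435 (7.30, SE 0.15). Separation from the shDrosha-labelled libraries was a condition for selecting these genes. For all 3, the lowest inducible library also stood far above both wt libraries. RIOX1, a nucleolar histone demethylase, was at 35.9 to 44 CPM against 0.343 and 0.272 (6.98, SE 0.18). ANOS1, an extracellular protein whose loss causes Kallmann syndrome, was at 36.4 to 49.5 CPM against 0.285 and 0.381 (6.88, SE 0.24). PEG10, SLFN11, ERBB4, RIOX1 and ANOS1 were all called higher in the mRNA of the Dicer shRNA line as well, by 8.23, 10.51, 9.02, 7.90 and 6.47.

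POLR1HASP and MDC1 also stood among the 10 largest rises of these well expressed genes, and both come from the same region of chromosome 6. POLR1HASP, a long antisense transcript, was at 104.9 to 158 CPM in the inducible libraries and at 0 and 0.599 in the shDrosha-labelled ones (8.73). It lies in a raised stretch of 35 tested genes (chr6:29751965-30597179) with a median of 2.89 and 20 called higher. In it PPP1R11 and TRIM26, picked after their values were seen, were at 0 CPM in the shDrosha-labelled and wt libraries. They were at 7.53 to 15.9 CPM in the inducible ones, while HCG18 differed by -0.15. In mRNA the 12 testable genes of the stretch had a median of 0.51, and POLR1HASP rose by 4.36. MDC1, a mediator of the DNA damage checkpoint, was at 67.8 to 124 CPM against 2.46 and 2.01 (5.47). This region has several alternative sequences in the annotation the study used, and transcripts of those copies could not be matched to a gene. For MDC1, 3 unmatched transcripts of exactly the length of its main transcript had a mean of 1607 counts in the shDrosha-labelled libraries and 128 in the inducible ones. Added to the matched transcript, they left a log2 difference of 0.33. At the 20 lengths within 10 bases of it, 2 had an unmatched transcript and none had more than 1. The MDC1 difference is therefore uncertain, as counts may have been split between allelic copies. Whether the counts of POLR1HASP and its neighbours were split too was not tested. No unmatched transcript with at least 30 counts in a library had the length of the main POLR1HASP transcript. Among 104 named genes looked up in this way 33 had an unmatched transcript of the same length (31.7%), but so did a mean of 31.2% at the 20 nearby lengths (26.9 to 40.4%), so that length alone does not tie such a transcript to a gene. Added to the main transcript without regard to this, they turned the difference of 2 genes described further on, CAV1 (to -0.16) and METTL1 (to 0.096), and left 10 with less than 50% of theirs. Among these were MDC1, SLFN11 (2.29), STING1 (0.61), SLC13A3 (-0.27), CCN2 (0.13) and HSPH1 (-0.070), and whether their unmatched transcripts belong to them was not tested.

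**Figure D2:**
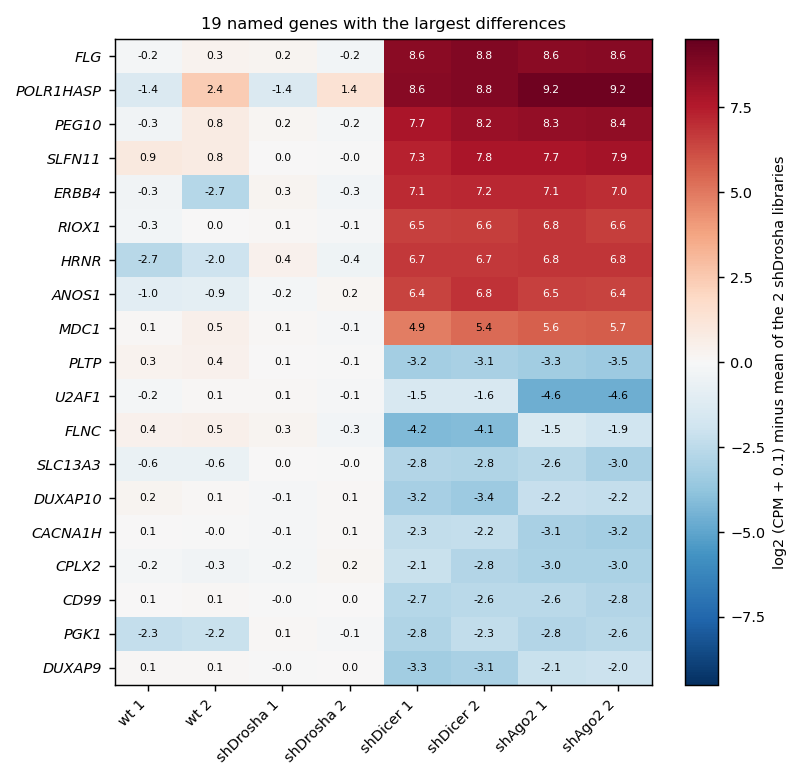
Level of 9 of the 10 genes with the largest rise and of the 10 with the largest fall among well expressed genes (vertical axis) in the 8 chromatin libraries (horizontal axis); colours and printed values are log2 (CPM + 0.1) minus the mean of the 2 shDrosha libraries. The 4 inducible columns differ from the shDrosha columns in all 19 genes, as the selection required. The wt columns resemble shDrosha in most of them and resemble the inducible lines for PGK1.

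The largest falls among well expressed genes were smaller. PLTP, which transfers phospholipids between lipoproteins, was at 4.37, 4.77, 4.13 and 3.60 CPM in the inducible libraries and at 42.4 and 39.2 in the shDrosha-labelled ones (-3.28, SE 0.10, edgeR, adjusted p = 6.4e-09). SLC13A3, a sodium-coupled dicarboxylate transporter on the same chromosome arm, was at 3.82 to 5.06 CPM against 33.0 and 31.5 (-2.84). CACNA1H, a T-type calcium channel, was at 3.49 to 6.94 CPM against 31.4 and 35.2 (-2.74), and CPLX2, a regulator of synaptic vesicle release, was at 5.73 to 11 CPM against 42.8 and 53.1 (-2.74). In all 4 genes the highest inducible library lay below the lowest shDrosha-labelled one, which the selection of these genes required. CD99, a surface glycoprotein gene in the pseudoautosomal region, was at 6.06 to 7.10 CPM against 42.1 and 42.4 (-2.67). PLTP, SLC13A3, CACNA1H and CD99 were called lower in the mRNA comparison too, by -4.90, -4.07, -3.37 and -4.97, whereas CPLX2 was not testable there. The related pseudogene transcripts DUXAP10 (45.1 to 107 CPM against 463 and 521) and DUXAP9 (19.3 to 45.7 CPM against 185 and 189) fell by -2.77 and -2.62. Of their 31-base words, 63.0% and 79.6% occur in another gene, so the counts of these 2 cannot be fully separated from those of their copies.

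PGK1, a glycolytic enzyme, was the one member of these 10 in which wt did not resemble the shDrosha-labelled libraries. It was at 143, 207, 153 and 168 CPM in the inducible libraries, at 210 and 232 in wt, and at 1131 and 937 in the shDrosha-labelled ones (-2.63, SE 0.13). With counts scaled from TPM the difference was -0.91, and PGK1 did not pass in mRNA (-0.14). By transcript, PGK1-201 had 19658.8 and 17077.5 counts in the shDrosha-labelled libraries and 1865 to 2726 in the others. PGK1-205 had 0 counts in the shDrosha-labelled libraries against 458 to 702, and PGK1-203 had 113 and 100 against 262 to 432. The excess thus belonged to PGK1-201 in the shDrosha-labelled libraries, where these other transcripts were lower. FASN, the fatty acid synthase, showed the reverse: 1363, 1643, 1712 and 1829 CPM in the inducible libraries, 609 and 465 in the shDrosha-labelled ones, and 1037 and 1082 in wt (1.60, SE 0.13). GAPDH, the glycolytic enzyme the study used as a control, was at 269 to 523 CPM in the inducible libraries, 273 and 201 in the shDrosha-labelled ones and 438 and 469 in wt. Its difference of 0.63 was called (edgeR, adjusted p = 0.00434), but the groups overlapped, and the call was lost without replicate 2 of shDrosha or of shDicer, without either shAgo2 library, and in DESeq2. ETNK1, another control, fell by 0.47 on the log2 scale (edgeR, adjusted p = 0.00341) and lost its call without replicate 1 of shDrosha or either shAgo2 library, and HPRT1, the last of them, differed by -0.36 (edgeR, adjusted p = 0.0135).

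The nuclear long non-coding RNAs NEAT1 and MALAT1, which lie side by side on chromosome 11, moved in opposite directions. NEAT1, the scaffold of nuclear paraspeckles, was at 7225, 8182, 7159 and 6382 CPM in the inducible libraries and at 2291 and 1794 in the shDrosha-labelled ones, with wt lowest at 700 and 776 (1.82, SE 0.13, edgeR, adjusted p = 2.5e-06). MALAT1, a component of nuclear speckles, was at 579, 638, 816 and 755 CPM against 1388 and 1165, with wt at 815 and 836 (-0.89, SE 0.09, edgeR, adjusted p = 3.5e-05). For NEAT1 all 3 kinds of sample differed in level, while for MALAT1 the wt libraries were nearer the inducible ones. Together they took 0.711 to 0.869% of all counts in the inducible libraries and 0.309 to 0.360% in the shDrosha-labelled ones. This share, that of microRNA hairpin genes (0.609 to 0.681% against 0.506 to 0.560%) and that of long non-coding RNA genes (15.7 to 16.01% against 15.1 to 15.2%) separated the groups completely. An exact two-sided permutation test of 4 against 2 samples gave p = 0.133 for each, the smallest this design allows, so that p below 0.05 cannot be reached, and 0.356 after adjustment over the 8 shares tested. Among 15 genes of NEAT1, MALAT1 and paraspeckle proteins 2 were higher, NEAT1 and TARDBP, and 5 lower.

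The genes that the study had tested as targets of nuclear silencing by tRNA-derived small RNAs (tsRNAs) were all higher in the inducible lines. All 10 were called, against 11.6% of tested genes, with a median difference of 2.44. The study took its first targets from genes upregulated in its mRNA comparison of the Dicer shRNA line with wt, and later ones from these chromatin samples, so neither this count nor the mRNA count below is independent evidence of their direction. The synthetic small RNAs it used against them were taken from its supplement, and are shown since the target calls turn on these genes:
tsRNA SPINT1: cgagucucgguggaaccuuugu
tsRNA LINC00665: ggggguguagcucaguggua
tsRNA EGFR/MET: ucccugguggucuagugguuag
tsRNA BCL2: uaagccagggauuguggguucg
SPINT1, a membrane inhibitor of serine proteases, was at 16.6, 20.3, 15.5 and 14.0 CPM in the inducible libraries and at 1.31 and 1.14 in the shDrosha-labelled ones (3.74, SE 0.18). CCN3, a secreted matrix-associated growth regulator, was at 4.63 and 6.73 CPM in shDicer and 2.21 and 2.51 in shAgo2, against 0.4 and 0.327 (3.31, SE 0.32). GUCY1A2, a subunit of soluble guanylate cyclase, was at 21.6 to 24.8 CPM against 2.00 and 2.72 (3.30), and GK, glycerol kinase, was at 121 to 172 CPM against 16.8 in both (3.05). Of the 31-base words of GK 34.3% occur in another gene, mostly in pseudogene copies. In these 4 genes wt lay at or below 18.7 CPM and close to the shDrosha-labelled values of the same gene.

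LINC00665, a long non-coding RNA of chromosome 19 (chr19:36259540-36331770, minus strand), was at 293, 283, 419 and 421 CPM against 44.7 and 45.8 (2.94, SE 0.08), and shares 29.1% of its words with other genes. Its 50 neighbouring genes had a median difference of 1.26 themselves. CNN3-DT, a transcript divergent from the calponin gene CNN3, differed by 1.95, the receptor tyrosine kinases MET and EGFR by 1.35 and 1.05, RBP7, a retinoid-binding protein, by 1.21 and BCL2, an inhibitor of apoptosis, by 0.60. MET was at 83.9 to 115 CPM against 43.0 and 35.9, EGFR at 62.9 to 84.7 CPM against 38.2 and 32.2, and BCL2 at 37.0 to 39.5 CPM against 24.4 and 26.5. When the median of the 50 neighbouring genes was used as an offset, RBP7 and BCL2 lost their calls and 8 of the 10 targets remained higher. In mRNA, 9 of the 10 were higher in the Dicer shRNA line, with a median of 3.18, and BCL2 (0.66) was not called, in the comparison from which the first targets were taken.

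The counts of gene lists from here on stand beside 11.6% higher and 10.9% lower over all tested genes. Over protein-coding genes these shares were 15.4% and 15.8%. List counts under another rule stand beside the counts of that rule over the 32730 tested genes. These were 7728 higher and 7724 lower at an unadjusted p under 0.05 in edgeR, and 3350 and 3082 in DESeq2. They were 2978 and 2310 with the neighbourhood offset and 3219 and 2946 with counts scaled from TPM. Of 25 genes that make and carry small RNAs 8 were lower and 1 higher, with a median of -0.22 against a median of 0.00 over all tested genes. TUT7, which adds uridines to let-7 precursors, was at 31.5 to 39.2 CPM in the inducible libraries and at 80.8 and 71.1 in the shDrosha-labelled ones (-1.10). DDX17, a helicase of the Drosha complex, was at 574 to 663 CPM against 1376 and 1139 (-1.03). NCBP1, the nuclear cap-binding protein, was at 92.4 to 107 CPM against 180 and 154 (-0.75), and lost its call with the neighbourhood offset. The single member that rose was LIN28B, an inhibitor of let-7 maturation (0.52), and with counts scaled from TPM or with the neighbourhood offset 0 members were higher.

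Of 92 microRNA host transcripts 74 were tested, with 9 higher and 18 lower. MIR99AHG on chromosome 21, which carries miR-99a, let-7c and miR-125b, was at 28.4, 32.8, 26.8 and 29.1 CPM in the inducible libraries, 10.7 and 9.69 in the shDrosha-labelled ones and 5.40 and 6.50 in wt (1.51, SE 0.11). MIR222HG on the X chromosome, which carries miR-221 and miR-222, was at 9.10 and 11.3 CPM in shDicer, but at 60.0 and 66.0 in shAgo2, beside 67.7 and 62.7 in the shDrosha-labelled libraries and 69.2 and 72.1 in wt. The fall of MIR222HG over both lines (-1.37) was thus a fall in shDicer (-2.68) beside -0.05 in shAgo2. The mature microRNAs within these 2 hosts, on the host's strand and as RefSeq gives them for GRCh38.p14, are shown with bases 2 to 8, the seed that pairs with targets, in capitals:
hsa-miR-221-3p: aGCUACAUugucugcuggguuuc
hsa-miR-222-3p: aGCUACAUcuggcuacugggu
hsa-miR-99a-5p: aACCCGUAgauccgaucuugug
hsa-let-7c-5p: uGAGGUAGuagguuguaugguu
hsa-miR-125b-5p: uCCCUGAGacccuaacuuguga
The first 2 share the seed GCUACAU and lie at chrX:45746180-45746202 and chrX:45747036-45747056 on the minus strand. The other 3 have different seeds and lie at chr21:16539101-16539122, chr21:16539838-16539859 and chr21:16590253-16590274 on the plus strand. The files used here hold no level of a mature microRNA, only that of the host transcript.

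MIR4435-2HG, the host of miR-4435-2, was at 99.6 and 100 CPM in shDicer and 142 and 152 in shAgo2, against 41.6 and 37.9 (1.61), and shares 33.2% of its 31-base words with other genes, mostly with its near-copy CYTOR. MIR2052HG was at 7.36 to 9.29 CPM against 22.9 and 21.8 (-1.48). Of 348 tested genes that consist of a microRNA hairpin 10 were higher and 13 lower, shares of 2.87% and 3.74% that lie below those of all genes. MIR196A1, in the HOXB cluster, was at 2.60 to 3.59 CPM against 1.08 and 1.36 (1.37), a call that was lost without replicate 1 of shDrosha.

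Messenger RNAs known as targets of let-7 went both ways, with 11 of 39 higher and 9 lower and a median of 0.08. CCND1, the G1 cyclin D1, was at 64.8, 66.6, 63.5 and 64.4 CPM in the inducible libraries and at 14.2 and 15.8 in the shDrosha-labelled ones (2.11, SE 0.08). ACVR1C, an activin-type receptor, rose by 2.19. TRIM71, a stem cell RNA-binding protein, fell instead, from 25.8 and 24.3 CPM to 3.47 and 2.91 in shDicer and 6.15 and 7.59 in shAgo2 (-2.42, SE 0.11). CCND1 and ACVR1C were called higher, and TRIM71 lower, in the mRNA comparison.

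Several groups of genes were called mostly in one direction. Of 26 p53 target genes 15 were higher and 2 lower, with a median of 0.49. PLK2, a kinase induced by stress, was at 11.6 to 16.1 CPM against 3.88 and 2.72 (2.08), PHLDA3, a repressor of Akt, at 29.3 to 44.6 CPM against 13.2 and 14.8 (1.32), and PMAIP1, the pro-apoptotic Noxa, at 31.7 to 57.3 CPM against 20.7 and 17.9 (1.17). In mRNA, 18 of the 26 were higher and 0 were lower by edgeR, also at an unadjusted p under 0.05. Of 51 genes of the interferon response and of double-stranded RNA sensing 14 were higher and 1 lower, with a median of 0.30. STING1, the adaptor of cytosolic DNA sensing, was at 16.3 to 18.6 CPM against 2.51 and 2.34 (2.84), and PARP14, an ADP-ribosyltransferase, at 35.3 to 40.9 CPM against 9.48 and 9.42 (2.03). Among 30 sterol and fatty acid synthesis genes 12 were higher and 1 lower, led by FASN, HMGCS1, the synthase of the mevalonate pathway (1.06), and STARD4, a sterol carrier (0.97). With counts scaled from TPM 7 of them were higher and with the neighbourhood offset 6.

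The receptor tyrosine kinases split, with 13 of 38 higher and 5 lower. Beside ERBB4, MET and EGFR on the higher side, RET, the receptor of glial-derived factors, fell from 14.2 and 12.8 to 1.97 to 3.81 CPM (-2.33) and DDR2, a collagen receptor, from 18.4 and 15.4 to 3.44 to 4.98 CPM (-2.05). Collagens, laminins and matrix genes split in the same manner, with 23 of 75 higher and 15 lower. COL14A1, a collagen of the fibril surface, was at 209, 281, 266 and 261 CPM against 21.5 and 17.1 (3.71), and COL4A4, of the basement membrane, at 88.8 to 110 CPM against 18.5 and 16.8 (2.46). COL21A1 had 713 counts in the inducible libraries and 3 in the shDrosha-labelled ones, a ratio per library of 111 (95% counting interval 38.0 to 542). Among 30 actin crosslinking and adhesion genes 6 were higher and 2 lower. LCP1, the actin-bundling L-plastin of blood cells, was at 81.9 to 109 CPM against 2.23 and 2.40 (5.29), and CAV1, the coat protein of caveolae, rose by 2.32.

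Clustered protocadherins, neuronal adhesion proteins made from alternative promoters on chromosome 5, were called in one direction, with 17 of 43 higher and 0 lower by edgeR, 14 and 0 by DESeq2, and 26 and 0 at an unadjusted p under 0.05 in edgeR. With the neighbourhood offset 11 were higher and 1 lower. Their median was 0.32 in shDicer and 1.35 in shAgo2. PCDHGB5 was at 26.4, 24.6, 29.0 and 32.2 CPM against 0.685 and 0.708 (5.31). These genes share their 3′ exons, and 58.0% of the 31-base words of PCDHGB5 occur in another gene, so the calls of single members are uncertain.

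On the lower side, 11 of 38 HOX cluster genes were lower and 2 higher. HOXC10 was at 4, 3.66, 2.80 and 2.78 CPM against 18.2 and 18.3 (-2.48) and HOXC11, its neighbour, at 2.85 to 4.10 CPM against 17.4 and 16.7 (-2.39). Of 15 markers of embryonic kidney cells 5 were higher and 5 lower. NEFL and NEFM, the light and medium neurofilament genes that HEK293 cells express, lie side by side on chromosome 8 and moved apart. NEFL was at 124, 196, 89.3 and 91.3 CPM in the inducible libraries and 12.2 and 11.1 in the shDrosha-labelled ones (3.36), while NEFM was at 2.32, 2.70, 1.18 and 0.655 CPM against 11.6 in both (-2.93). Of 27 imprinted genes 7 were higher and 4 lower. PLAGL1, a zinc finger protein expressed from the paternal allele, fell from 30.7 and 26.5 CPM to between 0.655 and 1.43 (-4.92), in contrast to PEG10, and MKRN3 rose by 1.62.

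In several lists of general cell functions more members were called lower than higher, while most members were not called. Their lower shares ran from 21.6% (tRNA genes) to 39.1% (exosome factors), against 15.8% of protein-coding genes. Of 44 genes of the ATF4 amino acid and stress response 15 were lower and 6 higher (median -0.20). SLC7A5, the large neutral amino acid transporter, was at 24.1 to 27.5 CPM against 59.8 and 66.0, with wt at 90.4 and 86.6 (-1.30). Of 26 heat shock chaperones 9 were lower and 1 higher, among them HSPH1 (-1.07) and CHORDC1 (-0.90). Of 76 mitochondrial ribosomal protein genes 20 were lower and 3 higher, and of 78 nuclear-encoded respiratory chain genes 17 were lower and 4 higher. Cytosolic ribosomal protein genes had 20 lower and 7 higher of 85, but 8 and 8 with counts scaled from TPM, so no direction is given for them. RPL12 differed by -1.01 and RPS6 by -0.83. Of 23 nuclear RNA exosome and decay factors 9 were lower and 2 higher, led by the nucleases or cofactors DIS3 (-1.11) and EXOSC9 (-0.87). Of 37 genes that cut, process or modify tRNA 8 were lower and 2 higher, led by RPP25, a subunit of RNase P (-0.95), and METTL1, a tRNA guanine methyltransferase (-0.80). With the neighbourhood offset the members lower were 8 in the ATF4 list, 5 among the chaperones, 11 among the mitochondrial ribosomal proteins, 3 in the respiratory chain and 5 among the exosome factors.

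Small RNAs that reside in Cajal bodies, with spliceosomal and other structured nuclear RNAs, were lower in 9 of 41 tested and higher in 0 by edgeR, 8 and 0 by DESeq2, and 20 and 0 at an unadjusted p under 0.05 in edgeR. SCARNA2, all of whose words also occur in an overlapping transcript, was at 76.0, 164, 82.2 and 109 CPM in the inducible libraries, at 409 and 259 in the shDrosha-labelled ones and at 92.6 and 102 in wt (-1.65). SCARNA7 was at 9.21 to 13.6 CPM against 30.7 and 19.1, with wt at 9.67 and 12.4 (-1.22). For both, as for PGK1, the wt libraries lay with the inducible lines and replicate 1 of shDrosha was the highest of all, and SCARNA2 lost its call without that library. Of 306 tested snoRNA genes 40 were lower (13.1%) and 3 higher (0.98%), against 10.9% and 11.6% of all tested genes. Their host genes, which carry snoRNAs in their introns, had 7 of 28 lower and 1 higher, with SNHG8 at -1.13, SNHG3 at -0.93 and SNHG12 at -0.92. The whole group of structured RNAs took 0.566 to 0.756% of the counts in the inducible libraries and 0.721 to 0.938% in the shDrosha-labelled ones, and the ranges overlapped.

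Other lists had no clear direction. Of 52 replication-dependent histone genes 5 were higher and 4 lower. The neighbours H2AC8 (16.9, 27.2, 14.1 and 17.2 CPM against 1.43 and 0.980) and H2BC8 rose by 3.94 and 2.72, while H3C1 fell by 2.86 on the log2 scale. Of 30 immediate early genes 7 were higher and 3 lower, of 21 targets of YAP with angiomotins 5 were higher, among them CCN2 (1.47), and 2 lower, and of 24 DNA and histone methylation enzymes 3 were higher, with DNMT3A at 0.62, and 4 lower, with EED at -0.83. Mitochondrially encoded genes had 1 call in 13, MT-CO1 (0.57), which was lost without either shAgo2 library, and the Schlafen family had 3 calls in 5, SLFN11 with SLFN12 (0.53) and SLFN13 (0.50), of which the last 2 were lost when only the library size was used for scaling and came to 0.057 and 0.018 with the neighbourhood offset. Of 11 tested blood cell markers 2 were higher, among them CD4 (0.79), and 2 lower, and of 6 tested fibroblast markers 0 were called by edgeR or DESeq2, with 2 higher at an unadjusted p under 0.05 in edgeR.

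Part of the difference followed position on the chromosomes. The log2 differences were ordered along each chromosome and the median of 50 neighbouring tested genes was followed. Stretches of at least 25 genes where it passed 0.4 in size formed 14 raised blocks with 1371 genes and 11 lowered blocks with 869 genes. The raised blocks held 667 of the higher calls (17.6%) and the lowered ones 395 of the lower calls (11.1%). Since the blocks were chosen on these differences, the values inside them are a description.

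A raised block ran over 399 genes of chromosome 19 (chr19:23123188-40950676), with a median difference of 0.84, 236 genes higher and 0 lower by edgeR, and 2 lower at an unadjusted p under 0.05. It holds many of the zinc finger genes of that chromosome. Of 242 such genes on chromosome 19, most of which encode repressors with a KRAB domain, 122 were higher (50.4%) and 3 lower, with a median of 0.47. ZNF227, outside that block in a second raised one, was at 200, 215, 254 and 267 CPM against 30.3 and 30.4 (2.93), and ZNF404 and ZNF256 rose by 3.69 and 2.83. With the neighbourhood offset 51 of the 242 were higher and 19 lower. The first 20.8 Mb of chromosome 1 (410 genes, median 0.56, 181 higher) and a stretch close after it (chr1:21596221-27308636, 128 genes, median 0.50, 58 higher) were raised, and the next one (chr1:28031884-35031741, 139 genes, median -0.56, 68 lower) was lowered. MRPL20 lies in the first of these and SNHG3 and SNHG12 in the last, and MRPL20 and SNHG12 lost their calls with the neighbourhood offset.

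On chromosome 9, 2 lowered blocks (chr9:91077104-106740875, 191 genes, median -0.69, 97 lower, and chr9:121207794-129007096, 172 genes, median -0.57, 83 lower) held NCBP1, IARS1, MRPL50 and RPL12, genes named above or members of the lists above. IARS1, the isoleucine tRNA synthetase, was at 286 to 354 CPM against 707 and 554 (-0.97). With the offset IARS1, MRPL50 and NCBP1 lost their calls and RPL12 kept its call. On the X chromosome a block of 83 genes (chrX:101345661-107244247) had a median of -0.995 with 45 lower. Whole chromosomes differed too. On chromosome 16, 312 of 1504 tested genes were lower and 27 higher (median -0.25), and on chromosome 11 the counts were 347 and 85 of 1634 (-0.24), while on chromosome 18, 136 of 616 were higher and 36 lower (0.22).

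The wt libraries differed little from the shDrosha-labelled ones in these blocks, by a median of 0.05 in the chromosome 19 block, 0.08 and 0.03 in the raised chromosome 1 blocks, 0.04 in the lowered one, -0.06 and 0.04 in the chromosome 9 blocks and -0.11 in the X chromosome block. In the mRNA of the Dicer shRNA line the same genes had medians of 0.94 on chromosome 19, of 0.76, 0.66 and -0.71 on chromosome 1 and of -0.80 on the X chromosome. The chromosome 9 blocks had mRNA medians of -0.17 and 0.09, close to no difference.

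**Figure D3:**
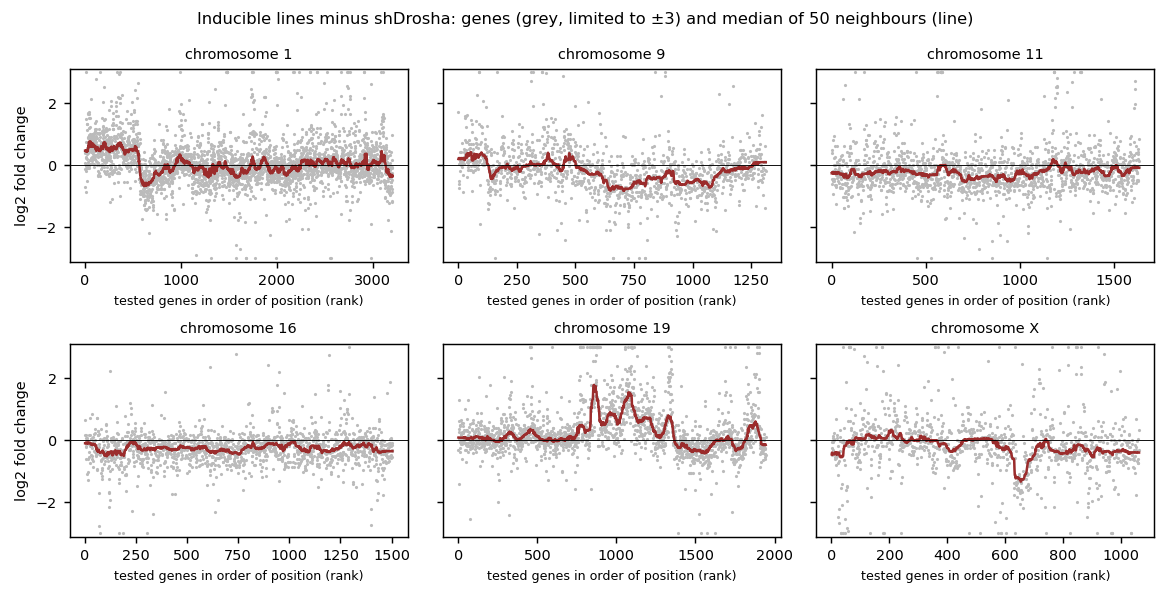
Log2 difference of inducible lines minus shDrosha (vertical axis, limited to 3 in either direction) for tested genes in order of position (horizontal axis, rank) on chromosomes 1, 9, 11, 16, 19 and X; grey points are genes and the line is the median of 50 neighbours. The line is raised over the start of chromosome 1 and the middle of chromosome 19 and lowered over parts of chromosomes 1, 9 and X, and runs slightly below 0 along chromosomes 11 and 16.

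The 2 inducible lines differed from each other in 516 genes (1.58%), and this count was 70 and 61 without replicate 1 or 2 of shAgo2 and 229 and 316 without replicate 1 or 2 of shDicer. TENM1, a teneurin of neuronal contacts on the X chromosome, was at 317 and 293 CPM in shAgo2 and at 6.17 to 10.9 in the 6 other libraries. Its call as higher in the inducible lines together (2.44) was thus that of shAgo2 (4.94), beside -0.07 in shDicer. PXDN, a peroxidase that crosslinks basement membrane, was lowest in shDicer, at 5.37 and 4.66 CPM, against 83.4 and 77.3 in shAgo2 and 112 and 94.7 in the shDrosha-labelled libraries. LRATD2, on chromosome 8, was at 88.8 and 94.7 CPM in shDicer and at 6.49 and 5.90 in shAgo2, with 49.9 and 46.8 in the shDrosha-labelled libraries between them. XYLT1, which starts the sugar chains of proteoglycans, had the same order, at 20.3 and 21.9, 2.70 and 2.51, and 13.7 and 12.9 CPM.

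Other genes fell in both lines to different depths. U2AF1, which recognises the 3′ splice site, was at 69.7 and 68.1 CPM in shDicer and 8.02 and 7.97 in shAgo2, against 213 and 188. It shares 10.9% of its 31-base words with other genes, mostly with ENSG00000275895. In both shAgo2 libraries its transcripts U2AF1-203, U2AF1-208 and U2AF1-209 had 0 counts, while U2AF1-211 had 158 and 122. Whether counts were assigned to another gene there was not tested, so the depth of the U2AF1 fall in shAgo2 is uncertain. FLNC, filamin C, was at 6.32 and 6.78 CPM in shDicer and 43.0 and 32.5 in shAgo2, against 141 and 98.6. AMOT, angiomotin, was at 53.4 and 77.6 CPM in shDicer and 223 and 204 in shAgo2, against 626 and 412, with wt highest at 1083 and 1315. These differences between the lines passed the test of shDicer against shAgo2 and are not those of a single inducible group.

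**Figure D4:**
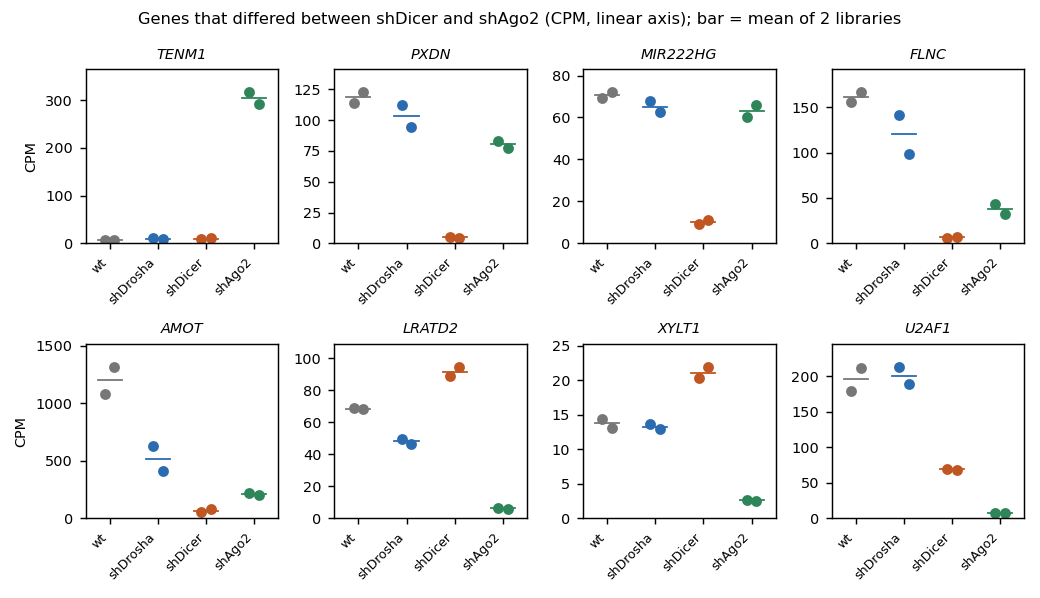
Chromatin RNA level in CPM (vertical axis, linear, from 0) for 8 genes that differed between shDicer and shAgo2, in wt, shDrosha, shDicer and shAgo2; each point is 1 library and each bar the mean of 2. TENM1 is high only in the 2 shAgo2 libraries, PXDN and MIR222HG are low only in shDicer, and LRATD2 and XYLT1 are high in shDicer and low in shAgo2.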

How the data were processed

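Chromatin RNA-seq files of 8 samples and mRNA-seq files of 6 were used, and the small RNA samples were not used here. The authors quantified each library with kallisto 0.43.1 (strand-specific) against Ensembl release 89 cDNA and non-coding sequences, which hold annotated transcripts. The deposited files give an estimated count and a TPM value per transcript. Bases in introns are thus counted only where an annotated transcript includes them. Here 193697 of 217082 transcripts (89.2%) were matched by identifier to 57087 genes of GENCODE 44 on GRCh38, and estimated counts were summed per gene and rounded. edgeR 4.0.16 in R 4.3.3 (TMM, filterByExpr, quasi-likelihood test) was fitted to 6 chromatin libraries with a term for each of 3 groups, comparing the mean of shDicer and shAgo2 with shDrosha, at an adjusted p under 0.005 (mRNA: 0.001). Shares of counts were compared by an exact permutation test. The fit was tested on simulated data.

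Members and gene lists were chosen with earlier results of these data known. Genes named were the 10 largest differences in each direction among genes called in both lines whose groups did not overlap (average log2 CPM of 3 or more), the 3 largest line differences each way, the targeted genes, the study's targets and controls, and up to 3 called members of each list (average log2 CPM of 1 or more). Some genes selected by this rule are not reported here. Alternatives were DESeq2 1.42.0, other normalizations, no filter, counts scaled from the deposited TPM values, a replicate block, a neighbourhood offset of 50 genes, other thresholds and leaving out each library. Replicates differed by more than counting noise (chi-square per degree of freedom 2.37 to 7.19 in the 3 groups), so none was merged.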

Additional observations from a re-analysis of the deposited data

Results flagged for a closer look

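Each of the following genes differed between the 2 inducible lines, by edgeR's test of shDicer against shAgo2 at an adjusted p under 0.005, although both lines stand on the same side of the comparison with shDrosha. Values are log2 differences of shDicer minus shAgo2. On the side lower in shDicer were TENM1 (-5.005), PXDN (-3.998), MIR222HG (-2.62), FLNC (-2.53), AMOT (-1.70), DUSP6, a phosphatase of ERK kinases (-1.58), DUXAP9 (-1.105), TRIM71 (-1.10), DUXAP10 (-1.08), DICER1 (-0.95), MIR4435-2HG (-0.56) and LINC00665 (-0.54). On the side higher in shDicer were LRATD2 (3.89), U2AF1 (3.11), XYLT1 (3.01) and METTL1 (0.82). Against shDrosha, DICER1 differed by -0.37 in shDicer, which was not called, and by 0.58 in shAgo2 (edgeR, adjusted p = 0.0171 and 0.00123). In the mRNA of the Dicer shRNA line against wt, PXDN, MIR222HG, FLNC, AMOT, TRIM71, DUXAP9, DUXAP10, DICER1 and U2AF1 were called lower. LRATD2 was called lower there too (-0.41), although it was higher in shDicer than in shDrosha (0.92). MIR4435-2HG and LINC00665 were called higher, and TENM1, XYLT1, DUSP6 and METTL1 were not called. Which of these go with the knockdown and which with the line cannot be told apart, since each hairpin was present in 1 line.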

How the results depend on the processing

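The direction of 115 of 118 named genes stayed the same in every alternative fit of the gene counts. DICER1 turned to -0.0389 with TPM-scaled counts and ranged from -0.0333 (without shDrosha replicate 2) to 0.255 when 1 library was left out. DROSHA turned to -0.0054 with TPM-scaled counts and -0.1424 with the neighbourhood offset and ranged from -0.0501 (without shDrosha replicate 2) to 0.1212, and UQCRFS1 to -0.128 with the offset. Counts depended on settings. Leaving out 1 library gave 2514 to 3697 genes higher and 2115 to 3400 lower in the inducible lines, 1614 to 2123 lower in shDicer, 1649 to 3638 higher and 854 to 3249 lower in shAgo2, and 61 to 705 that differed between the lines. In mRNA it gave 1436 to 2476 higher and 1289 to 2216 lower, both lowest without wt replicate 1. One term for both lines gave 2216 higher and 1825 lower, and the neighbourhood offset 2310 lower. Requiring a log2 difference over 1 as well gave 1793 higher and 887 lower in the inducible lines, 1671 and 767 in shDicer, 1810 and 911 in shAgo2, 234 between the lines and 688 lower in mRNA. At an adjusted p under 0.05 the counts were 6411 and 6385, 5747 and 5361, 5995 and 5786, 2603, and 4485 and 4178. Between the lines DESeq2 gave 786, TPM-scaled counts 268 and a fit of all 8 chromatin libraries 891, and with no filter 3747 genes were higher in mRNA. The causes were not tested. Replicate numbers did not pair the samples (correlations 0.0130, -0.137 and -0.0061 in chromatin RNA, 0.0455 to 0.0812 in mRNA). With a replicate block, 1668 genes were lower in shDicer, 135 differed between the lines, and 2934 and 2569 were higher and lower in the inducible lines. With crossed shDrosha numbers, chosen after seeing the data, 4039 were higher and 3722 lower in shDicer. Genes at a few counts in the shDrosha-labelled libraries, such as FLG, have fold changes limited by depth.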
